A study of Mus musculus with 4 samples.

Results

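Receptors with which macrophages take up modified lipoproteins, microbes and dying cells were followed across the cell types of the aged mouse kidney. The 9 genes were Msr1, Marco, Cd36 and Stab1, which encode scavenger receptors, Axl, Mertk and Timd4, which encode receptors for apoptotic cells, Vsig4, a complement receptor, and Cd5l, a secreted scavenger protein. They were taken by symbol from the gene list of the deposited matrices, where each of the 9 symbols matched 1 of 31054 genes. On GRCm38, Msr1 lies at chr8:39581685-39642673 (minus strand), Marco at chr1:120474538-120505024 (minus), Cd36 at chr5:17781690-17888801 (minus) and Stab1 at chr14:31139013-31168641 (minus). Axl lies at chr7:25757273-25788705 (minus), Mertk at chr2:128698956-128802894 (plus), Timd4 at chr11:46810800-46844332 (plus), Vsig4 at chrX:96247203-96293438 (minus) and Cd5l at chr3:87357881-87371073 (plus). Male C57BL/6 mice aged 19 months were given BPTES, an inhibitor of the glutaminase GLS1, or the vehicle DMSO for 1 month, with 2 libraries per group. Kidneys were digested with liberase, and 20000 CD45- and 9000 CD45+ cells sorted from a tissue were mixed before 10x GEM-X 3′ v4 library preparation, so the share of blood-derived cells was set by the sort. The labels give sample numbers within a group and do not say whether each library was a separate animal, and p-values measure the spread between these 4 libraries.

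Scavenger receptors bind polyanionic or oxidised ligands such as modified low-density lipoprotein and carry them into the cell. Efferocytosis, the clearance of apoptotic cells, starts when phosphatidylserine on the dying cell is recognised, either directly by Timd4 or through bridging proteins. Axl and Mertk bind the bridging protein Gas6, and Mertk also binds protein S. Cd5l, Vsig4, Timd4 and Marco are known as genes of long-lived resident macrophages in liver, spleen and serous cavities, while Msr1, Cd36, Axl and Mertk are used by many macrophages, and Cd36, Stab1 and Mertk also by endothelium.

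The 4 libraries held 249881074 to 297947661 UMIs in 17907 to 20091 barcodes, and 46738 of 76278 barcodes were kept as cells. Between 30.9% and 34.2% of the barcodes of a library were over the mitochondrial limit of 50% and were left out. Cells fell into 56 clusters, of which 48 were named from marker lists and joined into 18 classes, while 8 clusters with 3926 cells (8.4%) stayed unnamed. Each class name below stands for "like" (macrophage-like and so on), and the 9 genes were left out of the clustering. The macrophage class held 828 and 737 cells in BPTES replicates 1 and 2 and 1024 and 957 cells in DMSO replicates 1 and 2. The monocyte class held 446, 400, 502 and 196 cells in the same order, and the dendritic cell class 297, 291, 494 and 399. All 8 macrophage markers (C1qa, C1qb, C1qc, Adgre1, Fcgr1, Ms4a7, Csf1r and Apoe) were detected in each of the 3 macrophage clusters. Among kept cells, 224 barcodes were found in more than 1 library.

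The promoters of Cd5l, Vsig4 and Mertk are printed because Mertk and Vsig4 stood higher in the cells of DMSO replicate 1 that carried Cd5l than in its macrophages without Cd5l, although most of those cells had no Vsig4 UMI. RefSeq windows of 250 bases before the start site (GRCm38.p6) were found for 8 of the 9 genes, and that of Msr1 was not matched. Letters in capitals are matches to a motif on either strand.
Cd5l, chr3:87357631-87357880, plus strand: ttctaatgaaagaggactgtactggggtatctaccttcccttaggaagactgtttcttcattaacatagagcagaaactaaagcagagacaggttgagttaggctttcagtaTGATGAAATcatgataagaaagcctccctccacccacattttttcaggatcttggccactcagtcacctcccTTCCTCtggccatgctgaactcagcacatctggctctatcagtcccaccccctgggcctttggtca
Vsig4, chrX:96293439-96293688, minus strand: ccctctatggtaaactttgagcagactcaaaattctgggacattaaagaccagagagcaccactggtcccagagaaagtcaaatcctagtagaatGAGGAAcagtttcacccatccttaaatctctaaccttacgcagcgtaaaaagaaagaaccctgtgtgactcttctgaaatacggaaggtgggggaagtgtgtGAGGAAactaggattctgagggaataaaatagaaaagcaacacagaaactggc
Mertk, chr2:128698665-128698914, plus strand: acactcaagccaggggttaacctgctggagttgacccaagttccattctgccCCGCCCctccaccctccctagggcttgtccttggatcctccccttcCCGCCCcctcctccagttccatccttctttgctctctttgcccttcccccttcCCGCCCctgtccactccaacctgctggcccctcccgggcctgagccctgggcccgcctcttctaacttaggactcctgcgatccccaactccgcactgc
The PU.1 core GAGGAA, bound by the myeloid factor encoded by Spi1, was found in 5 of 8 windows (Cd5l, Vsig4, Marco, Axl and Stab1) and in 23.3% of all 32851 promoter windows. The Cd5l window held it on the opposite strand at base -66 from the start site and Vsig4 held it at bases -155 and -53. The GC box GGGCGG was found in 3 of 8 windows (Axl, Mertk and Cd36) and in 32.7% of all windows, with 3 matches in Mertk. The amino acid response element TGATGNAAT was found in Cd5l at base -138 and in 0.816% of all windows. The MAF half-site TGCTGAC was found in Timd4 and in 3.81% of all windows. The TATA box TATAAA, found in 12.4% of all windows, was in none of the 8. The matches did not overlap each other, and they describe letters and not binding.

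Each receptor had its own distribution over cell types. Levels are UMIs of the gene per 1000000 UMIs of the class in a library (CPM), and they are compared between classes for 1 gene at a time, since UMIs tagged at the 3′ end were not scaled between genes. Msr1 and Axl were concentrated in myeloid cells: macrophages held 43.2% and monocytes 35.1% of all Msr1 UMIs, and macrophages held 55.2% of all Axl UMIs. Mertk and Cd36 were spread wider. Proximal tubule cells, 21741 of the 46738 cells, held 45.5% of Mertk UMIs, endothelium 15.3% and macrophages 15.1%. For Cd36 the shares were 29.8% in proximal tubule, 19.2% in monocytes, 17.9% in macrophages and 14.8% in endothelium. Stab1 was shared between macrophages (44.4%) and endothelium (27.8%), and Timd4 lay mostly in dendritic cells (82.8%) with 12.8% in macrophages.

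**Figure D1:**
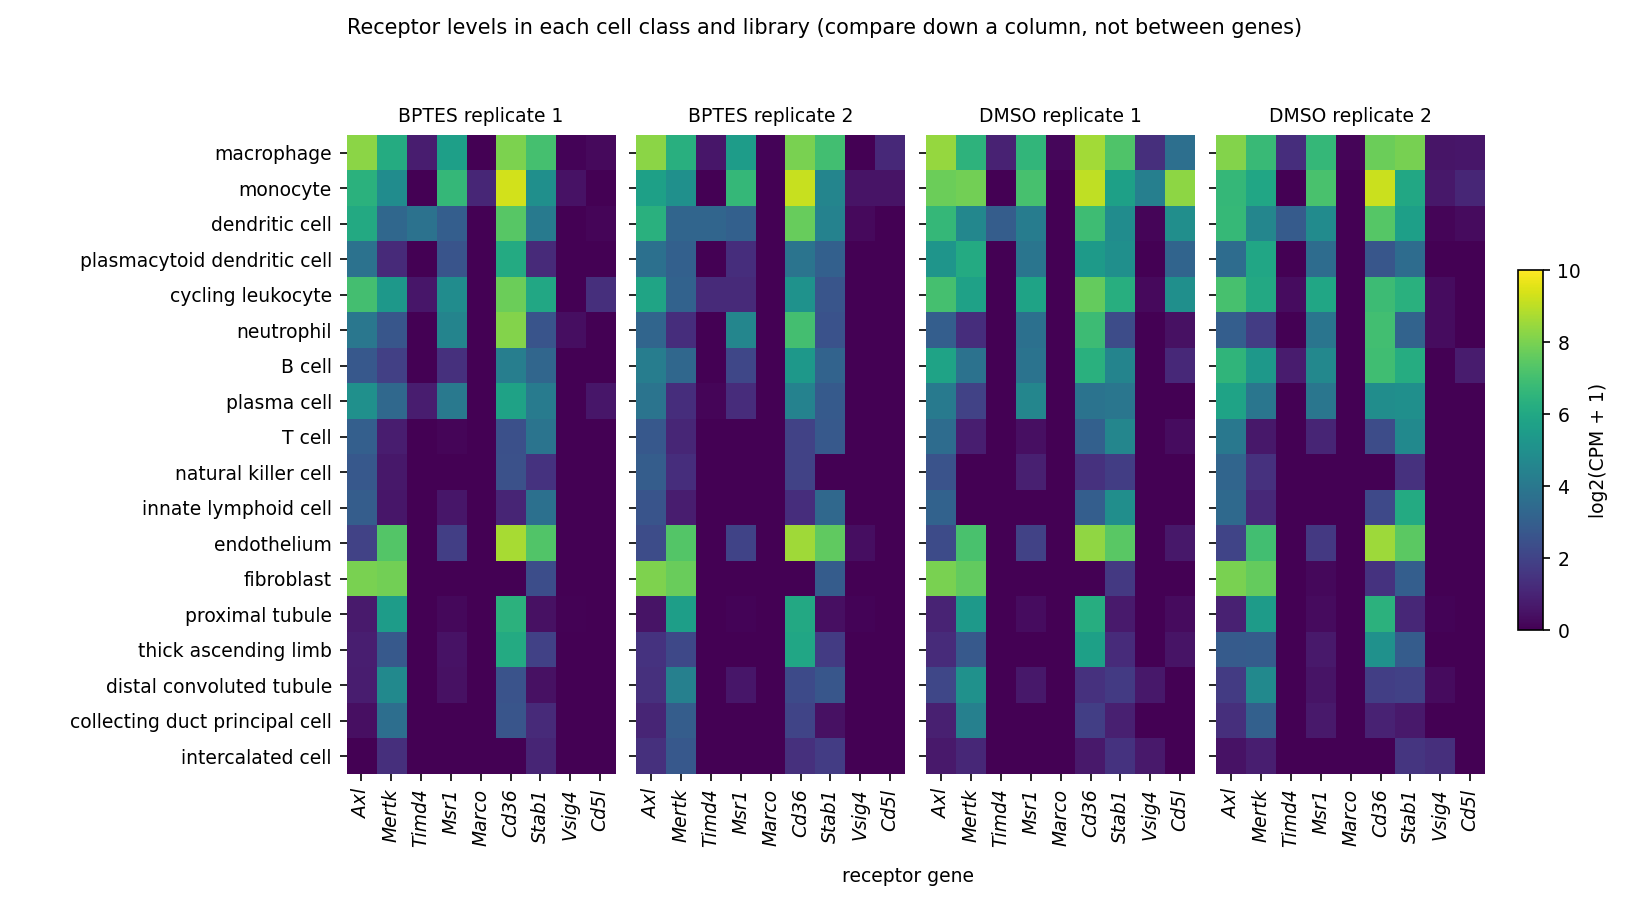
Level of each receptor gene as log2(CPM + 1) in 18 cell classes (rows), with 1 panel per library and colour from 0 to 10. Axl and Mertk are bright in fibroblasts as well as in macrophages, Cd36 is brightest in monocytes and endothelium, and Cd5l is brightest in the monocyte row of DMSO replicate 1.

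By level, Msr1 was highest in monocytes (101 to 139 CPM over the 4 libraries), followed by macrophages (44.8 to 100.3 CPM), and monocytes were above macrophages within each library. The share of T cells with an Msr1 UMI, a measure of free RNA, was 0 and 0.127% under BPTES and 0.413% and 1.18% under DMSO, against 29.3 to 57.1% of macrophages, at a median of 11564 UMIs in T cells and 16854.5 in macrophages. Axl, a receptor tyrosine kinase that binds Gas6, stood at 280.5 to 343 CPM in macrophages and 250.2 to 269.7 CPM in fibroblasts, the next class in the order. An Axl UMI was found in 89.1 to 94.2% of macrophages and in 5.81 to 12.6% of T cells.

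Mertk, the receptor kinase of tissue macrophages and of retinal pigment epithelium, was highest in fibroblasts (194 to 233 CPM) and endothelium (126 to 161 CPM), and their ranges did not overlap. The fibroblast class was small, with 16 to 183 cells per library. Macrophages (69.8 to 109 CPM) and monocytes followed with overlapping ranges. In monocytes the mean of Mertk rested on DMSO replicate 1, at 235 CPM against 27.8, 31.2 and 59.3 CPM in the other libraries. Cd36, a fatty acid and oxidised lipid receptor, was highest in monocytes (521 to 632 CPM), followed by endothelium (321 to 411 CPM) and macrophages (214 to 386 CPM), and the ranges of the last pair overlapped. Stab1, the receptor stabilin-1, stood at 155 to 189 CPM in endothelium and 123 to 249 CPM in macrophages, which overlapped. The 3′ end of Stab1 overlaps Nt5dc2 on the other strand. The strand setting of the counting is not given in the sources used here, and Nt5dc2 itself stood at 5.96 to 11.3 CPM in macrophages.

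Within the classes, clusters separated the receptors further, and these clusters were formed from other genes of the same cells, so the differences are descriptions. Monocyte cluster 18, led by Fn1, Chil3 and F13a1, had Msr1 at 136 to 171 CPM. At a finer clustering resolution of 2, part of it was placed in a cluster named macrophage (67 and 26 cells of BPTES replicates 1 and 2, 148 and 26 of DMSO replicates 1 and 2). Monocyte cluster 21, with Ace and Treml4 among its leading genes, had Msr1 at 22.5 to 40.9 CPM. For Cd36 the order was the other way, at 309 to 358 CPM in cluster 18 and 1098 to 1451 CPM in cluster 21, where 89.7 to 94.3% of cells had a UMI. Mertk and Stab1 were low in cluster 21, at 1.01 to 14.7 and 1.34 to 1.90 CPM. Among dendritic cells, the Xcr1 and Clec9a cluster 29, the cells known for cross-presenting dead-cell antigen, had Cd36 in 89.7 to 95.9% of cells, against 15.9 to 33.7% in the Cd209a cluster 14. Among endothelial cells, Cd36 reached 811 to 1131 CPM in cluster 23, led by Selp and Plvap, and 267 to 399 CPM in cluster 4, led by Igfbp3 and Esm1. Stab1 had a UMI in every cell of endothelial cluster 55, a group of 17 cells led by Ccl21a, Mmrn1, Lyve1 and Prox1, markers of lymphatic vessels.

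The genes whose level over the 56 clusters was most like a receptor's were named by Pearson's r of log2(CPM + 1), which is a description over clusters that share libraries and differ in depth. For Msr1 these were Lilra5 (r = 0.95), Tlr8 (0.93) and Clec4b1 (0.93). For Axl they were Rnf150 (0.90), Abca9 (0.88) and Prelid3a (0.88), for Mertk Sash1 (0.86), Iqsec2 (0.85) and Dock4 (0.83), and for Stab1 Dennd2c (0.85), Gm4951 (0.84) and Arap3 (0.84). Cd36 had lower values, with Trim25 (0.72), Pik3r6 (0.71) and BC028528 (0.71). For Cd5l they were Clec1b (0.83), Bach2os (0.80) and Cacna1f (0.79).

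In macrophages, Msr1 was the receptor that passed the test, and it was lower under BPTES. Msr1, the class A scavenger receptor for modified low-density lipoprotein, stood at 49.2 and 44.8 CPM in BPTES replicates 1 and 2 and at 93.8 and 100.3 CPM in DMSO replicates 1 and 2. Both BPTES libraries were below both DMSO libraries. Its log2 fold change, BPTES over DMSO, was -1.06 (SE 0.08, edgeR quasi-likelihood test, adjusted p = 0.00335). It was called, meaning an adjusted p under 0.05, in 14 of 14 alternative analyses, with values from -1.11 to -0.99. Of 7 members tested in macrophages 1 was called, beside 5.73% of all 14031 genes tested (3.94% lower and 1.79% higher under BPTES). Groups that did not overlap were frequent in these cells, with 30.2% of genes lower and 27.3% higher under BPTES.

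The share of macrophages with an Msr1 UMI was 30.1% and 29.3% under BPTES and 50.1% and 57.1% under DMSO. Macrophages of the BPTES libraries were shallower, with medians of 14928 and 14362 UMIs against 17394 and 20185. After each cell was thinned to 2000 UMIs the shares were 8.67% and 7.45% under BPTES and 15.9% and 14.4% under DMSO, and the groups did not overlap. With 2 libraries against 2 the exact permutation test can give no p below 0.333, which is the value it gave. The thinning left out 32 and 26 macrophages of the BPTES libraries and 44 and 63 of the DMSO libraries.

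Msr1 was lower in both large macrophage clusters. In the remaining macrophage cluster, 41, with 207 cells (median 1217 UMIs), the Msr1 groups overlapped. Msr1 means there were 129 CPM under BPTES (23 UMIs) and 114 CPM under DMSO (28 UMIs). In cluster 3 it stood at 56.6, 56.1, 102 and 115 CPM (BPTES 1, BPTES 2, DMSO 1, DMSO 2), with a log2 fold change of -0.94 (SE 0.10, edgeR adjusted p = 0.0114), 5.64% of genes being called there, and its call was lost on leaving out BPTES replicate 1 (-0.93, adjusted p = 0.110) or BPTES replicate 2 (-0.94, adjusted p = 0.14). In cluster 17 it stood at 38.7, 27.0, 77.5 and 77.9 CPM, with a log2 fold change of -1.22 (SE 0.14, edgeR adjusted p = 0.00518), called without each library in turn (1.26% of genes called). Unnamed cluster 9 scored best on the macrophage list. It was left unnamed because it was shallow (median 2012 UMIs) and had no macrophage marker among its leading genes. Its cells had Msr1 at 71.7 and 61.4 CPM under BPTES and 129 and 108 CPM under DMSO.

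Some markers of other cell types moved with the groups in macrophages. The summed level of the 11 proximal tubule markers was 584 and 441 CPM under BPTES and 364 and 288 CPM under DMSO, with 6 of 11 higher and 1 lower without overlap and none at 0. The 6 cycling markers summed to 25.1 and 23 CPM under BPTES and to 44.9 and 49.9 CPM under DMSO, with 5 of 6 lower without overlap. Of the 7 mural cell markers 6 were lower in this way (sums of 3.49 and 4.03 against 5.73 and 11.4 CPM). Of the 7 fibroblast markers 4 were (2.92 and 2.36 against 4.64 and 9.41 CPM). Over all genes tested 30.2% were lower and 27.3% higher without overlap. The 6 neutrophil markers summed to 53.0 and 57.1 CPM under BPTES and to 64.1 and 142 CPM under DMSO, with Ly6g at 0 in every library. Sums of the 9 monocyte markers (298 and 246 CPM under BPTES, 274 and 208 CPM under DMSO) and of the 10 dendritic cell markers (360.2 and 365 against 419 and 325 CPM) overlapped. The part of these cells or of free RNA in the Msr1 result was not tested.

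Levels of several receptors in T cells, B cells and proximal tubule moved with the groups too. Whether the UMIs there were free RNA or the cells' own was not tested. In T cells Msr1 gave 1 and 0 UMIs in the BPTES libraries against 4 and 13 in the DMSO libraries, with 0.127% and 0% against 0.413% and 1.18% of cells positive, and its level of 0 to 1.04 CPM compares with 44.8 to 100.3 CPM in macrophages. Axl (7.19 and 5.82 against 10.7 and 14.8 CPM) and Stab1 (13.2 and 5.92 against 23.2 and 26.2 CPM) were lower in T cells under BPTES without overlap, as were 25% of all genes. Their log2 fold changes were -0.95 (edgeR adjusted p = 0.136) and -1.36 (adjusted p = 0.215), each called in 3 of 13 alternatives. In B cells the 5 members tested had values from -2.95 to -1.81, all lower without overlap, as were 27.9% of all genes, and none was called. In proximal tubule Axl (-0.77), Msr1 (-1.07) and Stab1 (-1.28) were lower without overlap, as were 29.2% of all genes, and none was called (adjusted p of 0.146, 0.231 and 0.114). Cd36 and Mertk overlapped between groups in T cells. In neutrophils the log2 fold changes of Axl (0.69), Cd36 (0.68) and Msr1 (0.71) were positive (edgeR adjusted p of 0.549, 0.512 and 0.395). That of Stab1 was -0.40 (adjusted p = 0.797), and none of the 9570 genes tested in neutrophils was called. The part of free RNA in the results for macrophages, monocytes and dendritic cells was not tested.

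**Figure D2:**
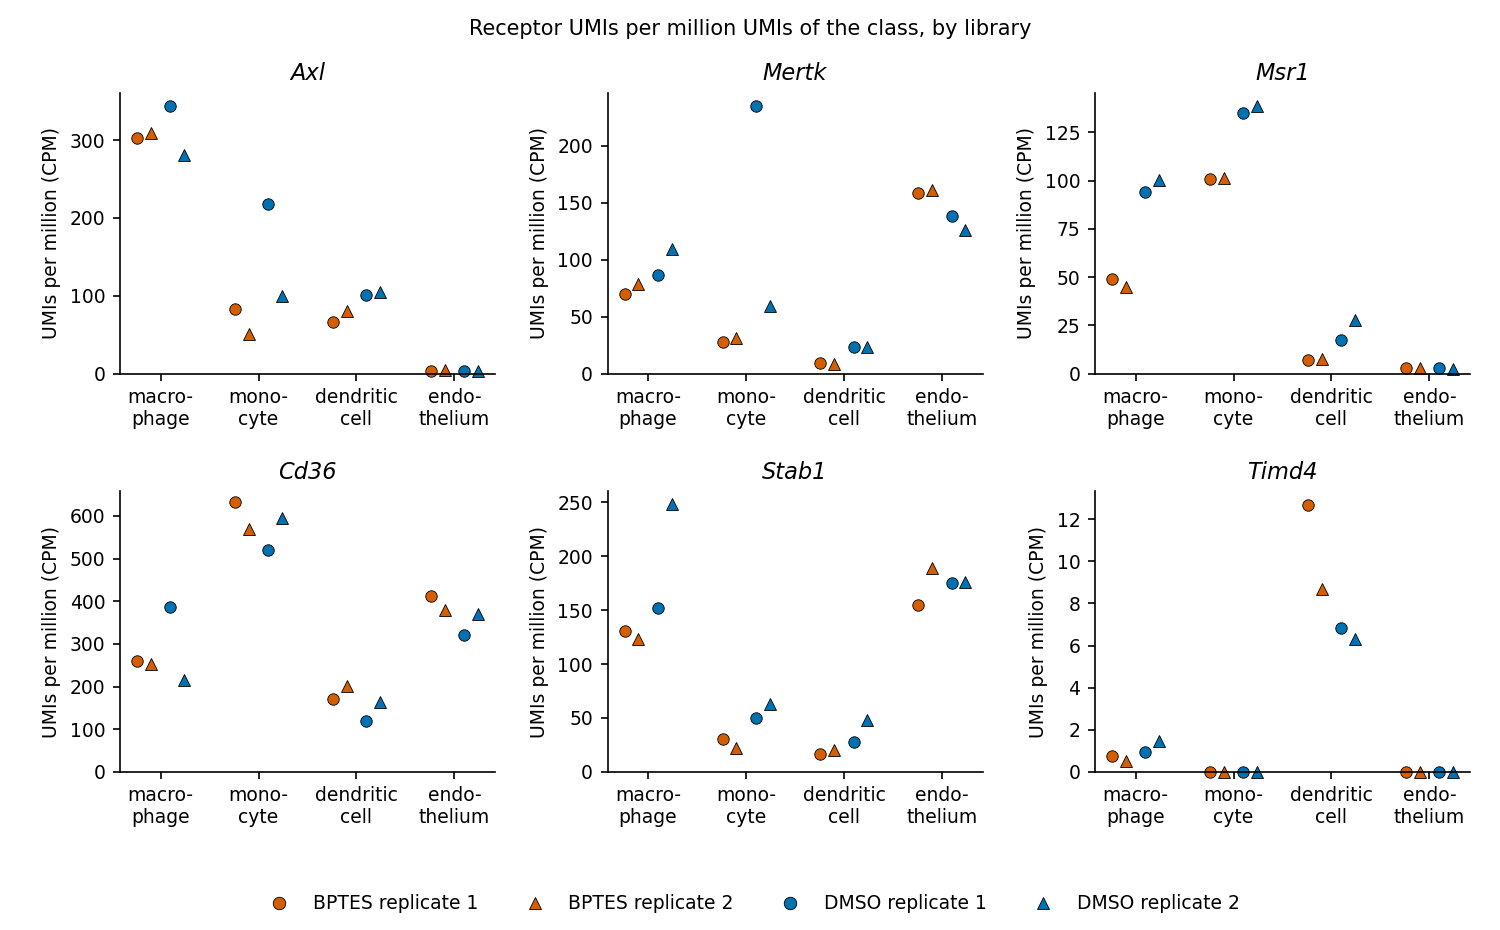
CPM (linear axes from 0) of 6 receptor genes in macrophages, monocytes, dendritic cells and endothelium, with 1 point per library, coloured by group and shaped by replicate number. In macrophages the 2 BPTES points of Msr1 (49.2 and 44.8) lie below the DMSO points (93.8 and 100.3), while the points of Axl and Cd36 overlap.

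The other receptors of macrophages did not pass the test. Mertk stood at 69.8 and 78.8 CPM under BPTES and at 86.4 and 109 CPM under DMSO. The groups did not overlap, with a log2 fold change of -0.40 (SE 0.14, edgeR adjusted p = 0.143). On leaving out DMSO replicate 1 it was -0.57 (adjusted p = 0.0151), the 1 alternative of 14 in which it was called. It was -0.22 without DMSO replicate 2 and -0.91 (adjusted p = 0.165) at the finer clustering resolution of 2. Stab1 stood at 131, 123, 152 and 249 CPM in the same order, with DMSO replicate 2 apart from the rest. The log2 fold change of Stab1 was -0.67 (SE 0.28, edgeR adjusted p = 0.256). It became -0.98 when DMSO replicate 1 was left out and -0.26 when DMSO replicate 2 was. In cluster 3 the log2 fold change of Mertk was -0.24 (adjusted p = 0.459), and it was 0.060 without DMSO replicate 2 and -0.49 (adjusted p = 0.00555) without DMSO replicate 1. In cluster 17 it was -0.64 (adjusted p = 0.122), and -0.89 (adjusted p = 0.0303) without BPTES replicate 2.

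Axl stood at 303 and 309 CPM under BPTES and at 343 and 280.5 CPM under DMSO, so that the BPTES values lay between the DMSO values. The log2 fold change was -0.037 (SE 0.11, edgeR adjusted p = 0.863), and it ranged from -0.17 to 0.11 when 1 library was left out. Cd36 stood at 259.5 and 252 CPM under BPTES and at 386 and 214 CPM under DMSO, again with the DMSO libraries on both sides. Its log2 fold change of -0.24 (adjusted p = 0.715) turned to 0.24 without DMSO replicate 1 and to -0.60 (adjusted p = 0.0116) without DMSO replicate 2. Timd4 gave 12, 7, 21 and 33 UMIs in macrophages, found in 0.586 to 1.99% of cells, and its log2 fold change was -0.88 (SE 0.44, adjusted p = 0.253). Marco, a class A scavenger receptor of alveolar and marginal zone macrophages, had 17 UMIs in all cells, 11 of them in 1 monocyte of BPTES replicate 1. In macrophages it had 0, 1, 3 and 2 UMIs and was not tested there.

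**Figure D3:**
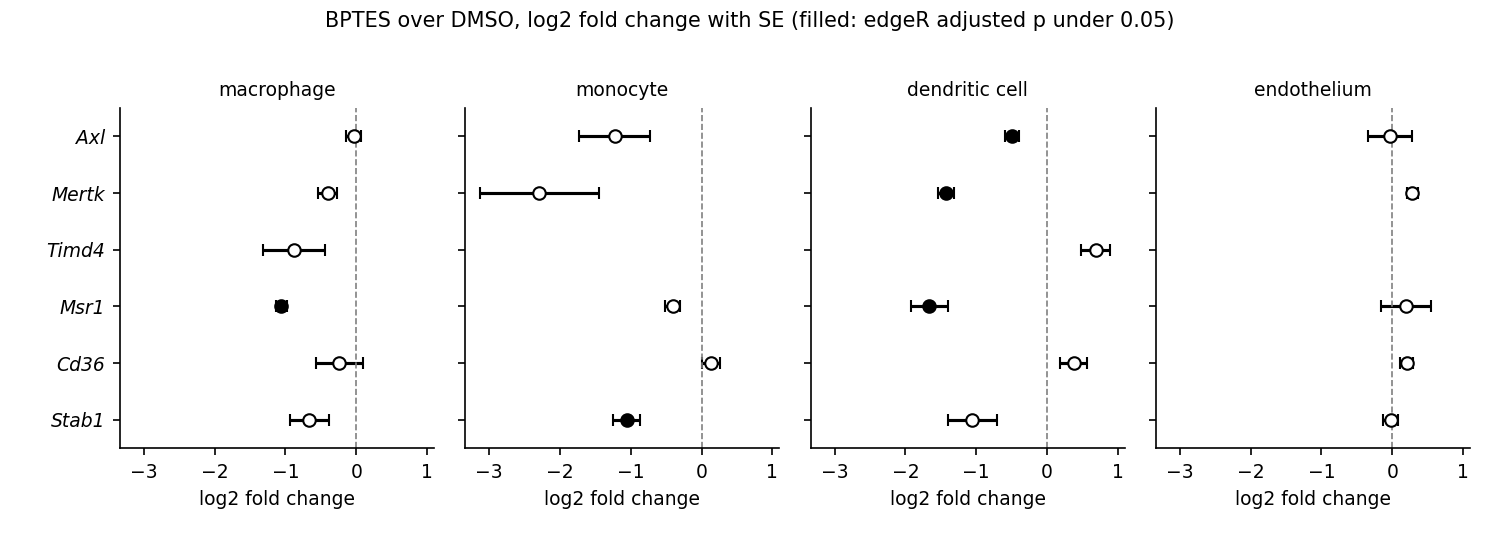
Log2 fold change, BPTES over DMSO, with its SE for 6 receptor genes in 4 classes, from edgeR fits on 2 libraries per group, with filled points for an adjusted p under 0.05. Filled points are Msr1 in macrophages, Stab1 in monocytes, and Axl, Mertk and Msr1 in dendritic cells. A missing point means that the gene was not tested in that class.

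Dendritic cells had 3 receptors called lower under BPTES. Mertk stood at 9.10 and 8.61 CPM under BPTES and at 23.7 and 23.4 CPM under DMSO, and its groups did not overlap. Its log2 fold change was -1.42 (SE 0.12, edgeR adjusted p = 0.00471), called in 13 of 13 alternatives from -1.45 to -0.81. Msr1 stood at 6.87 and 7.47 against 17.4 and 27.7 CPM, with a log2 fold change of -1.66 (SE 0.26, adjusted p = 0.0322), a call lost without BPTES replicate 1 (-1.59, adjusted p = 0.213) and without BPTES replicate 2 (-1.72, adjusted p = 0.250). Axl stood at 65.6 and 80.9 against 101 and 104 CPM, with a log2 fold change of -0.50 (SE 0.10, adjusted p = 0.0435). The Axl call was kept in 7 of 13 alternatives, and among the libraries it was lost on leaving out BPTES replicate 1 (-0.35), DMSO replicate 1 (-0.52) or DMSO replicate 2 (-0.48). With doublets kept the log2 fold changes in dendritic cells were smaller, at -0.22 for Axl (adjusted p = 0.424, not called), -0.81 for Mertk and -1.05 for Msr1. The 3 calls were among 6 members tested, beside 4.23% of all 13080 genes (2.23% lower under BPTES).

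The makeup of the dendritic cell class and markers of macrophages and other cell types moved with these results. Cluster 29 held 38.0% and 41.2% of the class under BPTES and 23.5% and 30.8% under DMSO, cluster 14 held 61.3% and 57.4% against 70.6% and 62.4%, and the Ccr7 cluster 52 held 0.673% and 1.37% against 5.87% and 6.77%. None of the 3 shares overlapped between groups, and the level of Cd36 in the class spans clusters at 249 to 345 CPM (cluster 29) and 57.1 to 116 CPM (cluster 14). The 8 macrophage markers, none of them at 0, summed to 1992 and 2434 CPM in dendritic cells of the BPTES libraries and to 3742 and 5469 CPM in those of the DMSO libraries, and 8 of 8 were lower without overlap, beside 27.9% of all genes. Markers of intercalated cells (6 of 6), natural killer cells (5 of 6) and T cells (7 of 10) were also lower without overlap, with none higher. Of the 5 distal convoluted tubule markers 3 were higher and 1 lower, and of the 11 proximal tubule markers 3 were higher and 1 lower. The part of this makeup, of these markers, of macrophage RNA or of macrophage-like cells in the results of the whole class was not tested. In the Cd209a cluster 14, Axl fell with a log2 fold change of -0.64 (SE 0.09, adjusted p = 0.0295, called without each library in turn; 0.561% of genes called). Mertk in cluster 14 stood at 8.87, 3.57, 29.2 and 30.8 CPM, with a log2 fold change of -2.27 (adjusted p = 0.0564), called on leaving out BPTES replicate 1 (-3.06) or BPTES replicate 2 (-1.78). Msr1 in cluster 14 stood at 5.57, 3.57, 19.8 and 37.4 CPM, with a log2 fold change of -2.64 (adjusted p = 0.0867), called on leaving out DMSO replicate 1 (-3.03) or DMSO replicate 2 (-2.12). In the Xcr1 cluster 29 the log2 fold changes of Mertk, Msr1 and Axl were 0.04, -0.29 and 0.12 (adjusted p of 0.948, 0.599 and 0.872), and the difference between the clusters was not tested.

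Timd4, the direct phosphatidylserine receptor, stood at 12.7 and 8.70 CPM in dendritic cells under BPTES and at 6.83 and 6.30 CPM under DMSO. The groups did not overlap, beside 26.9% of all genes higher in this way, and the log2 fold change of 0.69 (SE 0.21, edgeR adjusted p = 0.101) was not called, except without a filter on low counts (0.68, adjusted p = 0.0399), and it was 0.40 with doublets kept. It was called in cluster 29, where Timd4 stood at 20.8, 14.1, 4.28 and 5.53 CPM, with a log2 fold change of 1.80 (SE 0.28, adjusted p = 0.0368; 0.395% of genes called). The call was lost without BPTES replicate 1 (1.49, adjusted p = 0.0982) and without DMSO replicate 1 (1.64, adjusted p = 0.0544). In cluster 14 Timd4 stood at 6.44, 3.75, 6.39 and 6.09 CPM and overlapped, with a log2 fold change of -0.30 (adjusted p = 0.642) that was 0.021 without BPTES replicate 2. Timd4 UMIs were carried by few cells, with 130 of 1481 dendritic cells positive (8.78%) and up to 38 UMIs in a single cell. Cd36 in dendritic cells stood at 169.9, 202, 119.6 and 165 CPM. The BPTES values were above the DMSO values, by 169.9 against 165 at the closest, and the log2 fold change of 0.38 (adjusted p = 0.327) was called in 2 of 13 alternatives, without DMSO replicate 2 (0.62, adjusted p = 0.0497) and with the replicate block (0.39, adjusted p = 0.0238). Stab1 stood at 16.2, 20.7, 27.8 and 48.5 CPM, with a log2 fold change of -1.06 (adjusted p = 0.191), called in 3 of 13 alternatives: without DMSO replicate 1 (-1.40, adjusted p = 0.00341), by DESeq2 (-1.05, adjusted p = 0.00324) and with the replicate block (-1.03, adjusted p = 0.00722).

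The treatment effect itself was compared between classes in a fit with library as a block. For Mertk it differed between macrophages and dendritic cells by 1.06 on the log2 scale (SE 0.17, edgeR adjusted p = 0.0265; 1.23% of genes called), the effect being the more negative in dendritic cells. The call was lost without BPTES replicate 1 (1.22, adjusted p = 0.139) and without BPTES replicate 2 (0.84, adjusted p = 0.235). For Msr1 the difference between macrophages and dendritic cells was 0.62 (edgeR adjusted p = 0.342), and it ranged from 0.33 to 0.88 with 1 library left out. Between macrophages and monocytes Msr1 differed by -0.63 (SE 0.12, edgeR adjusted p = 0.0606), beside 0.706% of genes called. This difference ranged from -0.71 to -0.59 with 1 library left out. Between macrophages and endothelium Msr1 differed by -1.23 (adjusted p = 0.105; 0.228% of genes called) and Mertk by -0.67 (adjusted p = 0.139). With 1 library left out these differences ranged from -1.50 to -0.94 for Msr1 and from -0.92 to -0.44 for Mertk.

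In monocytes, Stab1 was the receptor called, and Msr1 was not. Stab1 stood at 30.8 and 22.2 CPM under BPTES and at 50.5 and 63.0 CPM under DMSO, and the groups did not overlap. The log2 fold change was -1.06 (SE 0.18, edgeR adjusted p = 0.0460), called in 7 of 13 alternatives and lost without BPTES replicate 1 (-1.29, adjusted p = 0.181) and without BPTES replicate 2 (-0.86, adjusted p = 0.364). The call was also lost with the replicate block (adjusted p = 0.099), at resolution 2 (-1.37, adjusted p = 0.0815), at the mitochondrial limit of 25% (adjusted p = 0.0519) and with the members kept in clustering (adjusted p = 0.053). It was 1 call among 6 members, beside 1.66% of all 12206 genes (0.909% lower under BPTES). Nt5dc2, which overlaps Stab1, stood at 4.11 and 5.17 CPM under BPTES and at 11.7 and 10.4 CPM under DMSO. Msr1 stood at 100.8 and 101 CPM against 135 and 139 CPM, and its log2 fold change of -0.41 (SE 0.10, adjusted p = 0.0881) was not called, although the groups did not overlap, except without a filter on low counts (adjusted p = 0.0224). It was -0.26 at resolution 2. Cd36 stood at 632, 569, 521 and 594 CPM, with a log2 fold change of 0.14 (SE 0.13, adjusted p = 0.581). In cluster 21, where it was the higher, Cd36 stood at 1098, 1105, 1412 and 1451 CPM, lower under BPTES without overlap, with a log2 fold change of -0.40 (SE 0.11, adjusted p = 0.105; 0.849% of genes called). That was called without DMSO replicate 1 (-0.43, adjusted p = 0.0143) and on leaving out DMSO replicate 2 (-0.38, adjusted p = 0.0135).

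The makeup of the monocyte class differed between libraries. Cluster 18 held 204, 208, 321 and 109 cells and cluster 21 held 242, 192, 181 and 87, so that cluster 21 held most monocytes of BPTES replicate 1 and cluster 18 most of the other libraries. The share of cluster 18, where Stab1 was the higher, was 45.7% and 52% under BPTES and 63.9% and 55.6% under DMSO, without overlap. Within cluster 18, Stab1 stood at 47.7, 32.1, 62.0 and 83.4 CPM with a log2 fold change of -0.83 (adjusted p = 0.180; 0.329% of genes called), and Msr1 at 136, 138, 159 and 171 CPM with -0.24 (adjusted p = 0.371). The 8 macrophage markers summed to 6177 and 4725 CPM in monocytes under BPTES and to 12491 and 9591 CPM under DMSO, with 7 of 8 lower without overlap, none at 0, and 27.4% of all genes lower in this way. T cell markers summed to 37.2 and 34.4 CPM under BPTES and to 80.9 and 113 CPM under DMSO, with 8 of 10 lower without overlap. Neutrophil markers were also lower (173 and 160 against 364 and 577 CPM). The sum of the 9 endothelial markers went the other way (210 and 238 against 91.4 and 119 CPM). Of these 9 markers 2 were higher and 3 lower without overlap. The part of these markers and of the makeup in the Stab1 result was not tested. Nor was that of the lower Stab1 in T cells, B cells, proximal tubule and innate lymphoid cells.

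**Figure D4:**
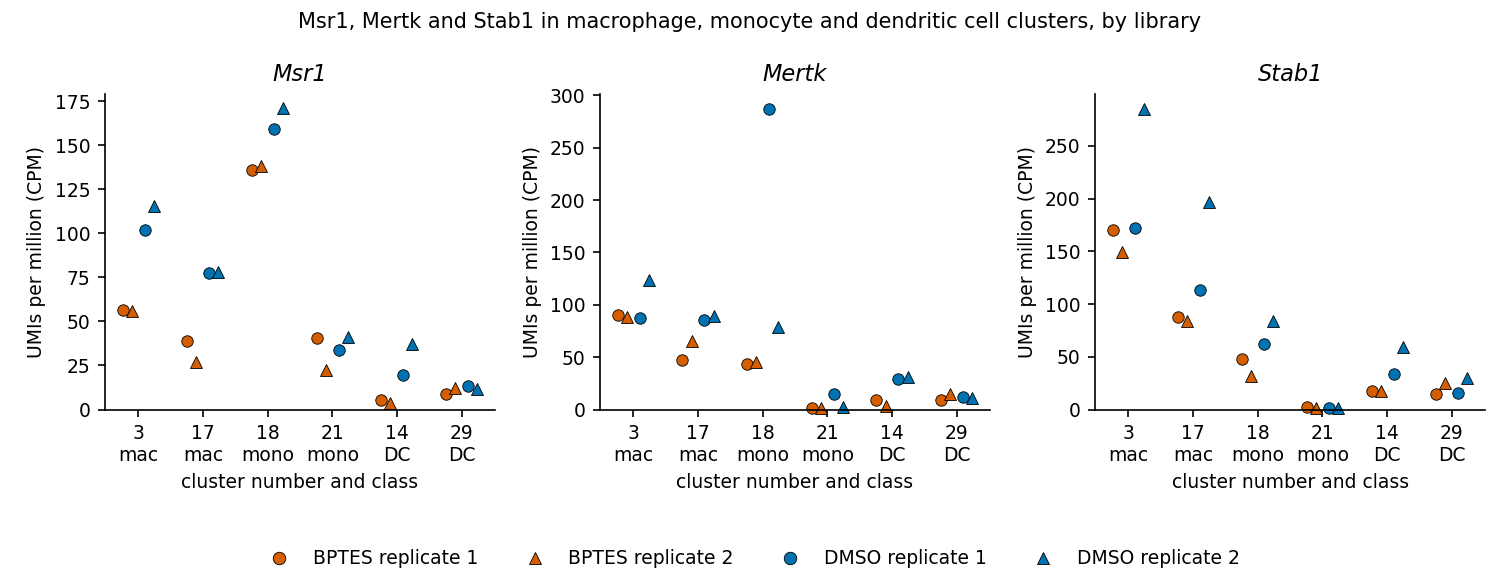
CPM (linear axes from 0) of Msr1, Mertk and Stab1 in 6 clusters of macrophages (mac), monocytes (mono) and dendritic cells (DC), with 1 point per library. Msr1 is lower in both BPTES libraries in macrophage clusters 3 and 17 and dendritic cell cluster 14, and the Mertk point of DMSO replicate 1 in cluster 18 (287) lies far above the others.

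Cd5l and Vsig4 came almost wholly from 1 DMSO library. Cd5l, also called AIM, gave 16 and 20 UMIs in the BPTES libraries, 5635 in DMSO replicate 1 and 25 in DMSO replicate 2, so that 98.9% of its UMIs lay in DMSO replicate 1. Vsig4, the complement receptor CRIg, gave 12, 14, 317 and 31 UMIs in the same order, 84.8% of them in DMSO replicate 1. By class at resolution 1, monocytes held 80.7% of Cd5l and 76.2% of Vsig4 UMIs, and dendritic cells held 10.1% of Cd5l UMIs. At resolution 2, 4457 Cd5l and 274 Vsig4 UMIs of DMSO replicate 1 lay in a cluster named macrophage, so the class depends on the resolution. In monocytes Cd5l stood at 0 (a count of 0 allows up to 0.301), 0.43, 317 and 1.10 CPM, and Vsig4 at 0.40, 0.43, 18.9 and 0.55 CPM. In monocytes the DMSO libraries thus differed from each other by far more than DMSO replicate 2 differed from the BPTES libraries. In macrophages Vsig4 gave 1 UMI under BPTES and 45 under DMSO, at 1.53 CPM or less. It was lower there without overlap, as were 30.2% of the genes tested. Neither gene was called in the main analysis: the edgeR adjusted p of Cd5l was 0.40 in monocytes and 0.50 in macrophages, and Vsig4 did not pass the filter on low counts in either class. Cd5l in macrophages, at 0.19, 1.22, 11.5 and 0.53 CPM, had a log2 fold change of -3.16 (SE 2.25), which became 0.36 when DMSO replicate 1 was left out and -4.10 (adjusted p = 0.0452) when DMSO replicate 2 was. It was -7.21 with doublets kept and -7.13 at resolution 2, neither called (adjusted p of 0.431 and 0.406). In monocytes Cd5l was called in 1 alternative, with DMSO replicate 2 left out, which leaves DMSO replicate 1 alone in its group.

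In DMSO replicate 1, 71 cells with 5 or more Cd5l UMIs held 97.8% of its Cd5l UMIs, with up to 378 in a cell, and 6 cells with 5 or more Vsig4 UMIs held 90.2% of its Vsig4 UMIs. Of the 71 cells, 53 were in monocyte cluster 18, 11 in the 3 macrophage clusters and 4 in dendritic cell clusters. These cells were chosen by their Cd5l, so the values that follow are descriptions. Mertk stood at 674 CPM in them, against 76.4 CPM in the 995 macrophages of the same library with no Cd5l UMI, and 97.2% of them had a Mertk UMI. Vsig4 stood at 84.4 against 0.28 CPM, with a UMI in 23.9% of the 71 cells, Axl at 530 against 342, and Msr1 at 184 against 90.7. Stab1 (83.9 against 149.6 CPM) and Cd36 (225 against 395 CPM) were lower in them, and Timd4 and Marco had no UMI. Of other genes, named after their values were seen, Spic, a transcription factor of splenic red pulp macrophages, stood at 304 against 18.4 CPM, Fcna, a ficolin, at 558 against 0.57, and Vcam1, an adhesion molecule of the same macrophages, at 1162 against 70.6. C1qa, a macrophage marker, was at 4059 against 3886 CPM. Adgre1, another macrophage marker, was lower by level in the 71 cells, at 449 against 574 CPM. Ly6c2 was also lower by level, at 40.4 against 78.7 CPM. The labels give no source for these cells beyond the kidney digest, and whether they belonged to the kidney was not tested. The 71 cells were deep, with a median of 41052 UMIs against 17180.

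At the finer Leiden resolution of 2, 267 cells of cluster 18 and 1 of cluster 3 formed cluster 45, which was named macrophage rather than monocyte. It held 67 and 26 cells in the BPTES libraries and 148 and 27 cells in the DMSO libraries. Cd5l gave 0, 0, 4457 and 3 UMIs in this cluster, and Vsig4 gave 1, 0, 274 and 0. Mertk stood at 73.1, 159, 499.7 and 168 CPM and Axl at 229, 213, 429 and 213 CPM, so that DMSO replicate 1 was high and DMSO replicate 2 lay near the BPTES libraries. Msr1 stood at 94.2 and 119 CPM under BPTES and at 169 and 137 CPM under DMSO, also highest in DMSO replicate 1. Fcna stood at 1.69, 17.5, 284 and 23.7 CPM and Slc40a1, the iron exporter ferroportin, at 13.9, 68.1, 571 and 52.2 CPM.

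**Figure D5:**
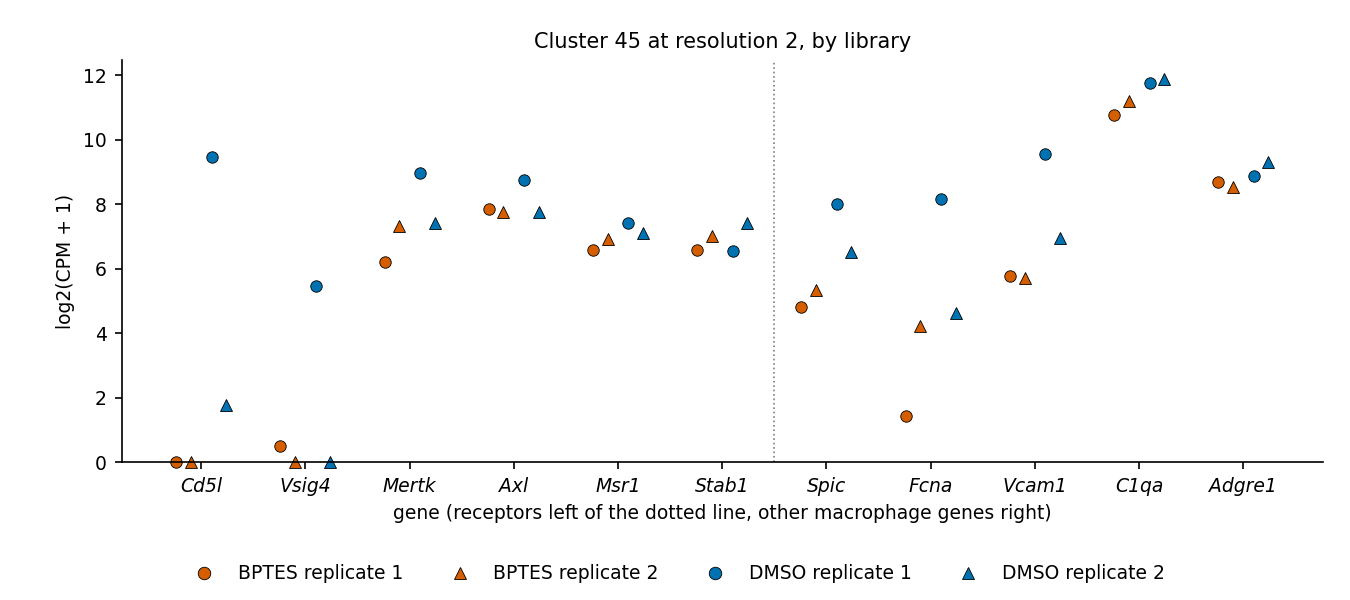
Level as log2(CPM + 1) of 6 receptor genes (left of the dotted line) and 5 other macrophage genes (right) in cluster 45 at resolution 2, with 1 point per library. DMSO replicate 1 stands apart for Cd5l, Vsig4, Mertk, Spic, Fcna and Vcam1, while for C1qa and Adgre1 DMSO replicate 2 is the highest.

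In the monocyte class, where most of these cells lay at resolution 1, Mertk and Axl were also highest in DMSO replicate 1. Mertk in monocytes stood at 27.8, 31.2, 235 and 59.3 CPM, with a log2 fold change of -2.29 (SE 0.84, edgeR adjusted p = 0.289). With DMSO replicate 1 left out it was -0.997, and without DMSO replicate 2 it was -2.94. At resolution 2, where cluster 45 was no longer a part of the monocytes, it was -0.96 (adjusted p = 0.0223). Axl in monocytes stood at 83.2, 50.3, 218 and 99.8 CPM, with a log2 fold change of -1.23 (SE 0.50, adjusted p = 0.296). It ranged from -1.65 to -0.57 with 1 library left out, was -0.87 (adjusted p = 0.0992) at resolution 2, and was called with the replicate block (-1.17, adjusted p = 0.0454) and with doublets kept (-1.42, adjusted p = 0.0484).

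In the classes other than macrophages, monocytes and dendritic cells no receptor was called. Endothelial Mertk stood at 158 and 161 CPM under BPTES and at 138 and 126 CPM under DMSO, without overlap, as were 21.5% of all genes higher in this way. Its effect of 0.29 on the log2 scale (SE 0.08, edgeR adjusted p = 0.168) was not called, while 0.722% of 13705 genes were called and 1575 genes were at an unadjusted p under 0.05. Endothelial Stab1 stood at 155, 189, 175 and 176 CPM, with a log2 fold change of -0.022 (adjusted p = 0.969), and it was 0.14 without BPTES replicate 1. Cd36 stood at 411, 379, 321 and 370.2 CPM in endothelium, with a log2 fold change of 0.20 (SE 0.09, adjusted p = 0.418). In endothelial cluster 4 it stood at 399, 353, 275 and 267 CPM with a log2 fold change of 0.49 (SE 0.09, adjusted p = 0.0242; 1.03% of genes called), a call lost without DMSO replicate 2 (0.48, adjusted p = 0.0650). Mertk in cluster 4 stood at 153, 149, 123 and 112 CPM, with 0.38 on the log2 scale (SE 0.09, adjusted p = 0.0648), and was called on leaving out BPTES replicate 1 (0.37), BPTES replicate 2 (0.38) or DMSO replicate 1 (0.44). In proximal tubule Mertk stood at 45.3, 47.2, 40.8 and 44.0 CPM (log2 fold change 0.21, adjusted p = 0.27; 0.922% of genes called) and Cd36 at 85.4, 64.8, 74.9 and 85.8 CPM (-0.019, adjusted p = 0.944). In the other 7 classes tested no member was called by edgeR, at 0.772% of genes called in B cells, 0.179% in T cells, 0.342% in innate lymphoid cells, 0.0% in neutrophils, 0.168% in thick ascending limb, 0.0672% in distal convoluted tubule and 0.0265% in collecting duct principal cells. Neutrophils had 1062 genes at an unadjusted p under 0.05 and none called. The members nearest to a call were Msr1 in B cells and Stab1 in innate lymphoid cells. Msr1 stood at 1.62, 3.34, 13 and 24.6 CPM in B cells (edgeR adjusted p = 0.0525, called in 5 of 13 alternatives). Stab1 stood at 12.0, 9.42, 29.8 and 68.3 CPM in innate lymphoid cells (edgeR adjusted p = 0.0610). It was called there by DESeq2, with the replicate block, at the mitochondrial limit of 25% and with shared barcodes removed. It was not called with RLE scaling, doublets kept, members kept in clustering or resolution 2. The fibroblast class had too few cells in 3 libraries to be tested.

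Other genes of the uptake pathway were followed in macrophages through 9 lists. Each is read beside the median log2 fold change of -0.01 over all genes tested. Of these genes 3.94% were called lower and 1.79% higher. For the genes of the lists, fell and rose mean called lower and called higher. Among 11 bridging molecules and opsonins 1 fell, Cfp, which encodes properdin (-1.70), and the median was -0.56 with 11 of 11 negative. The median of the list was also below that of all genes in monocytes (-0.87), dendritic cells (-0.79) and endothelium (-0.57, with 9 of 11 negative), and 3 of its genes are also cell type markers. Among 17 other receptors for phosphatidylserine and engulfment 3 fell, the lipid receptor Trem2 (-0.95), Cd300lf (-0.88) and the Fc receptor Fcgr1 (-0.53), with a median of -0.05. Among 13 other scavenger receptors 1 fell, the mannose receptor Mrc1 (-0.92), and 1 rose, Cd163l1 (4.70), which is best known from γδ T cells and is named here although it was below the level set for named genes. Cd163l1 stood at 4.15 and 3.10 TMM-scaled CPM against 0.18 and 0.09, and its log2 fold change was -0.023 with doublets kept. Among 16 genes of lipid sensing and efflux 2 fell, the LXR gene Nr1h3 (-0.90) and Fabp5 (-1.82), with a median of -0.15. Among 15 genes of the engulfment machinery 1 fell, Lamp1 (-0.56), with a median of -0.01, and the median of the other scavenger receptors was -0.09.

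Of 10 macrophage transcription factors 2 fell, Spic (-1.01) and Klf4 (-0.38), of 6 genes of signals that inhibit engulfment 1 fell, Pilra (-0.34), and of 9 genes of resident macrophages 2 fell, the fractalkine receptor Cx3cr1 (-0.58) and Mrc1. Of 10 genes of recruited macrophages and monocytes none was called, with a median of -0.42 and 8 of 10 negative. The medians were -0.32 for the transcription factors (9 of 10 negative), -0.28 for the signals that inhibit engulfment (6 of 6) and -0.18 for the resident genes (6 of 9). Trem2 stood at 69.2 and 82.0 TMM-scaled CPM under BPTES and at 136 and 155 under DMSO, and it was called in 14 of 14 alternatives, from -1.07 to -0.83. The edgeR adjusted p of the 12 genes that fell in these lists was 0.0125 for Trem2, 0.0476 for Spic and between these for the others. Of the 12, 10 lost the call without BPTES replicate 1 (log2 fold changes of -1.74 to -0.37) and 11 without BPTES replicate 2 (-1.88 to -0.30), while 2 lost it on leaving out DMSO replicate 1 and 4 on leaving out DMSO replicate 2. With the replicate block 10 of the 12 lost the call, with doublets kept 7 and at resolution 2 6. At resolution 2 Klf4 was at -0.098 and Spic at -2.02. The macrophage class then held cluster 45, where Spic gave 64, 45, 1637 and 114 UMIs (BPTES 1, BPTES 2, DMSO 1, DMSO 2). All 12 stayed negative in the 14 alternatives. In dendritic cells Trem2 stood at 8.96, 10.2, 33.2 and 41.2 TMM-scaled CPM and fell with a log2 fold change of -1.95 (SE 0.14, edgeR adjusted p = 0.00471), beside the macrophage markers given above.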

How the data were processed

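Single-cell RNA was counted in 2 BPTES and 2 DMSO kidney libraries. The deposited matrices give unnormalised UMI counts of each gene in each barcode, made by the authors with Cell Ranger 8.0.1 on mm10, per the submitters' processing notes. The filter and annotation the authors used are not given in the sources used here. Barcodes with at least 500 UMIs, at least 300 genes and at most 50% mitochondrial UMIs were kept, and the highest Scrublet scores (scanpy 1.11.5) were removed as doublets, 0.4% per 1000 barcodes. Log-normalised values (to 10000 UMIs) of 3000 variable genes without the 9 members gave 40 principal components, 15 neighbours and Leiden clusters at resolution 1. Clusters were named by 162 markers of 23 types.

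The counts of all cells of a class in a library were added up (at least 50 cells in every library, 12 classes) and tested with edgeR 4.0.16 (robust quasi-likelihood, TMM, filterByExpr, Benjamini-Hochberg over all genes, threshold 0.05). CPM in the text are unscaled unless called TMM-scaled. Fits without 1 library leave 1 group with a single sample, which is assumed to vary like the other group. Calls gained or lost in these fits are therefore descriptions. Other alternatives were DESeq2 1.42.0, RLE scaling, no filter, a replicate block, a mitochondrial limit of 25%, doublets kept, resolution 2, members kept in clustering, shared barcodes removed and, for macrophages, the unnamed macrophage-marker cluster added; the last 2 and the tests of monocyte, dendritic cell and endothelial clusters were chosen after seeing the data. The edgeR script was tested on simulated data. Shares were compared by exact permutation test after thinning to 2000 UMIs. An upper limit for a count of 0 uses 3 counts and covers counting error only.

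The members and gene lists were chosen with earlier results of these data known. Named were all 9 members, up to 4 called genes per list with the largest change in macrophages (mean log2 CPM of at least 3, groups not overlapping), and for each member with at least 200 macrophage UMIs the 3 genes most like it over clusters. Gene positions are from GENCODE M21 (GRCm38).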

Additional observations from a re-analysis of the deposited data

Results flagged for a closer look

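The treatment effect on Mertk differed between 2 cell classes. Its log2 fold change, BPTES over DMSO, was -0.40 in macrophages and -1.42 in dendritic cells. In a fit of both classes with library as a block, the effect in macrophages minus that in dendritic cells was 1.06 (SE 0.17, edgeR adjusted p = 0.0265), and Mertk was lower in both BPTES libraries in each class. Without BPTES replicate 1 the difference was 1.22 and without BPTES replicate 2 it was 0.84, and in each of these fits the call was lost. Without DMSO replicate 1 it was 0.88, and without DMSO replicate 2 it was 1.25. The summed macrophage markers of the dendritic cell class (1992 and 2434 CPM under BPTES, 3742 and 5469 CPM under DMSO) moved with it, and their part in the difference was not tested.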

How the results depend on the processing

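The fall of Msr1 in macrophages and of Mertk in dendritic cells kept its direction and its call under every alternative run (14 and 13). Counts of called members moved. In macrophages (1) the count was 2 without a filter and 1 to 4 with 1 library left out. In monocytes (1) it was 3 without a filter, 0 with a mitochondrial limit of 25%, 2 with doublets kept, 0 with members kept in clustering and 0 to 4 with 1 library left out. In dendritic cells (3) it was 5 with the replicate block and 1 to 4 with 1 library left out. In the 8 classes other than these and endothelium together (0) it was 6 by DESeq2, 8 without a filter, 9 with the replicate block, 1 with a limit of 25%, 2 with shared barcodes removed and 1 to 8 with 1 library left out. The number of members whose treatment effect differed from that in macrophages also moved with 1 library left out. In the main analysis it was 0 for endothelium, 0 for monocytes and 1 for dendritic cells. In B cells 4 of 5 members tested were called by DESeq2, beside 418 of 10879 genes. With the replicate block it was 4 of 5, beside 1004 of 10879, and without a filter 2 of 7, beside 1216 of 18610. In proximal tubule 2 of 5 were called with the replicate block, beside 2439 of 16045 genes, and 3 of 8 without a filter, beside 2139 of 23706. The cause of these moves was not tested. Signs turned when 1 library was left out for Cd5l (range -4.96 to 0.36), Cd36 (-0.60 to 0.24) and Axl (-0.17 to 0.11) in macrophages, each turning on leaving out DMSO replicate 1 and Axl also BPTES replicate 1. The same held for Mertk in macrophage cluster 3 (-0.49 to 0.060, turning at DMSO replicate 2), Timd4 in dendritic cell cluster 14 (-0.73 to 0.021, at BPTES replicate 2), endothelial Stab1 (-0.20 to 0.14, at BPTES replicate 1) and Cd36 in proximal tubule (-0.16 to 0.12, at the second library of either group). Cd36 in proximal tubule was 0.071 with a limit of 25%, and Cd163l1 in macrophages -0.023 with doublets kept. Deviations of same-numbered samples correlated at -0.048 in macrophages, 0.0034 in monocytes, 0.083 in dendritic cells and 0.045 in endothelium, and at 0.139 to 0.197 in B cells, distal convoluted tubule, proximal tubule and thick ascending limb. The labels tie no number to an animal or day and there are 2 pairs, so the numbers were taken to pair nothing. The replicate block changed the count of called genes from 804 to 58 in macrophages, from 203 to 121 in monocytes and from 553 to 887 in dendritic cells. It also raised the counts of 8 other classes (proximal tubule 148 to 2439, B cells 84 to 1004, distal convoluted tubule 7 to 780, T cells 23 to 501, thick ascending limb 18 to 259, neutrophils 0 to 46, collecting duct principal cells 3 to 22, innate lymphoid cells 30 to 58). Counts of called genes moved by over 1.5 times elsewhere: in macrophages to 1884 without a filter, 386 at resolution 2 and 44 to 1272 with 1 library left out. In monocytes they moved to 459 by DESeq2, 1511 without a filter, 702 with doublets kept, 335 at resolution 2 and 0 to 1025, in dendritic cells to 1199 without a filter and 203 to 502, and in endothelium (99) to 154 by DESeq2, 678 without a filter and 107 to 258. The share of macrophages with an Msr1 UMI, BPTES minus DMSO, was -7.11 percentage points at 2000 UMIs, -4.16 at 1000 and -23.9 unthinned, and for Mertk -3.89, -0.66 and -12.1. Depth limits Marco (17 UMIs in all), and Vsig4 and Cd5l outside DMSO replicate 1 (12 to 31 UMIs per library).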
